A study of Mus musculus with 24 samples.

Results

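Fatty acid uptake and oxidation are represented here by 10 genes: Lpl, Lipa, Cd36, Fabp4, Fabp5, Cpt1a, Cpt2, Acadl, Acadm and Ppargc1b. Accessibility at these genes was read from ATAC-seq, where a transposase inserts adapters into open chromatin, as the number of reads in each peak. A peak belonged to one of these genes where the authors' deposited table names that gene as its nearest. A peak with no row there was given to the gene whose listed transcription start site (TSS) lay nearest to its middle, within 50 kb. This gave 132 of 144411 peaks, 66 by the deposited name and 66 by the nearest TSS, and 127 of them had enough counts to be tested. Of the 132 peaks, 89 lay inside the named gene and 13 lay nearer to another protein-coding gene than to the assigned TSS. Being nearest to a TSS does not prove that a peak controls that gene, and peaks of one gene share a locus and are not replicates.

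The libraries came from bone marrow-derived macrophages of male C57BL/6 mice aged 8 to 10 weeks, grown for 5 days with medium conditioned by L cells. All cells carried LysM-Cre (LysM-Cre+/+), a recombinase driven by a myeloid promoter. KO cells were GRIP1fl/fl, so that loss of GRIP1 (a p160 coactivator of nuclear receptors encoded by Ncoa2) depends on recombination in each cell, and WT cells were GRIP1wt/wt. Each genotype received 10 ng/ml interleukin 4 (IL4), 100 nM dexamethasone (Dex, a synthetic glucocorticoid) or vehicle for 24 hours, although the treatment label of the vehicle libraries reads 25 hours. The 6 groups are KO IL4, KO Dex, KO vehicle, WT IL4, WT Dex and WT vehicle, with 4 libraries each. Whether the 4 libraries of a group stem from different animals or cultures is not stated in the labels. The p-values therefore cover only the spread between libraries, which may be technical.

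Macrophages take up fatty acids freed from lipoproteins by secreted lipase, imported through scavenger receptors, or released from engulfed particles in lysosomes. Inside the cell the acids are bound by carrier proteins, coupled to carnitine for entry into mitochondria and shortened by chain-length-specific dehydrogenases. IL4 is known to raise this oxidation in macrophages through STAT6 and PPARγ, with PGC-1β (Ppargc1b) as a coactivator, while glucocorticoids act through the glucocorticoid receptor.

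Libraries held 5820149 to 21939330 counts in peaks, and WT Dex replicate 2 was the shallowest. Levels are given as CPM, the counts of a peak relative to its library's total after TMM scaling, as mean ± SD of 4 libraries. The median peak of the 10 genes had 2.82 CPM, against 2.85 CPM for all 130103 tested peaks. Promoter peaks were found for 8 of 8 macrophage marker genes. Their summed levels ran from 274.6 to 293.1 CPM in KO IL4, 300.5 to 347.7 in KO Dex and 281.1 to 313.0 in KO vehicle. In WT they ran from 270.1 to 287.2 CPM with IL4, 329.9 to 363.4 with Dex and 292.6 to 308.6 with vehicle, so that the 3 WT groups did not overlap. For adipocytes, which use several of the same genes, 3 of 7 markers had a promoter peak, led by Plin1 at 4.04 CPM, while that of Adipoq had 0.499 CPM. The summed adipocyte markers ran from 10.6 to 13.8 CPM in KO IL4, 8.94 to 10.3 in KO Dex and 7.95 to 8.76 in KO vehicle. In WT they ran from 9.69 to 13.8 CPM with IL4, 10.1 to 11.1 with Dex and 6.91 to 8.86 with vehicle. They were thus higher in each treated group than in vehicle of the same genotype. Of the other marker lists, 4 of 7 neutrophil, 3 of 6 dendritic cell and 2 of 8 lymphocyte genes had a promoter peak. Some of these were near the level of macrophage promoters: Gata3 had 28.1 CPM, Zbtb46 21.3 and S100a8 20.1, where Adgre1 had 25.8 and Csf1r 22.4, while Camp had 12.1 CPM. The summed dendritic cell markers ran from 25.0 to 30.5 CPM in KO IL4, 31.5 to 35.3 in KO Dex and 27.6 to 30.6 in KO vehicle, and from 26.5 to 30.1, 29.3 to 34.3 and 28.3 to 30.4 CPM in WT IL4, WT Dex and WT vehicle. The lymphocyte markers summed to 26.7 to 30.9, 29.6 to 35.6 and 27.8 to 32.2 CPM in KO IL4, KO Dex and KO vehicle, and to 27.0 to 29.5, 31.4 to 39.7 and 28.2 to 30.6 CPM in WT IL4, WT Dex and WT vehicle. Dex and vehicle thus did not overlap for the dendritic cell list in KO and the lymphocyte list in WT. The neutrophil markers summed to 25.6 to 45.3 CPM over the KO libraries and 29.0 to 50.3 CPM over the WT libraries, with Dex and vehicle overlapping in both. The part of these marker lists in the results was not tested. In bulk libraries, fewer cells with an open site and a less open site per cell cannot be told apart. The promoter peak of Ncoa2 averaged 87.6 CPM in KO vehicle and 86.1 CPM in WT vehicle, but a promoter does not check a floxed exon, whose position the labels do not give. Of the 21 tested Ncoa2 peaks 2 were called between KO vehicle and WT vehicle, in opposite directions. At 49.7 kb upstream of the TSS the level was 7.83 CPM in KO vehicle and 1.04 CPM in WT vehicle (log2 fold change 2.96 ± 0.21, adjusted p = 6.42e-20). At 116 kb downstream it was 3.09 CPM in KO vehicle and 6.89 CPM in WT vehicle (log2 fold change -1.15 ± 0.16, adjusted p = 1.01e-07). These 2 peaks were also called between KO and WT in Dex and in IL4, in the same directions. A peak 29.6 kb downstream was called lower in KO in Dex (-0.62 ± 0.15) and in IL4 (-0.80 ± 0.15). Peaks at 76.7 kb (-0.73 ± 0.17) and 105 kb (-0.52 ± 0.14) were called lower in KO in IL4.

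At 3 start sites the data bear on the promoter itself, and their sequences are shown to let the promoters that moved be compared with one that was not called against vehicle. In WT Cd36 had the promoters that rose with IL4, Acadl and Fabp4 had promoters that rose with Dex (Acadl is shown), and the Cpt1a promoter was called with neither. In KO the promoters of Lpl and Ppargc1b also rose with IL4, and that of Ppargc1b rose with Dex, as given below. Each line holds the 250 bases before the TSS in RefSeq (GRCm38.p6, the mm10 assembly), 5′ to 3′ on the gene's strand. Capitals mark AGGTCA (a nuclear receptor half-site), CCAAT (the CCAAT box) and GGGCGG (the GC box), on either strand. RefSeq promoters were matched for 6 of the 10 genes.
Cd36 (chr5:17835897-17836146, minus strand): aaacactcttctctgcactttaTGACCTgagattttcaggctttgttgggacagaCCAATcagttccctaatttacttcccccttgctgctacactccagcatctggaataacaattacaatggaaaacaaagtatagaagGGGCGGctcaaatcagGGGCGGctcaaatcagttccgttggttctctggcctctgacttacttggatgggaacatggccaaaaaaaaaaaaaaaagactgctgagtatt
Acadl (chr1:66863310-66863559, minus strand): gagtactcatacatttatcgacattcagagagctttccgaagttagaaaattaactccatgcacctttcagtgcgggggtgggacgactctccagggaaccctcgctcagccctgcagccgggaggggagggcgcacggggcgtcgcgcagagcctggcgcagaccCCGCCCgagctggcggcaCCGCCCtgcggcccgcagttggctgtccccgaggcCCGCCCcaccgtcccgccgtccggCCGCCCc
Cpt1a (chr19:3323051-3323300, plus strand): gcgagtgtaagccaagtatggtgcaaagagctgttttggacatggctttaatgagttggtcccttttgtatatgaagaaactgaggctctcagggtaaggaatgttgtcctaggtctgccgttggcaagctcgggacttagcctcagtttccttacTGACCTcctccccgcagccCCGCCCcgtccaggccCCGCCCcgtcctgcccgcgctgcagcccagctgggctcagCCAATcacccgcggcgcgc
The Cd36 promoter had 3 CpG dinucleotides and 43.2% G and C, whereas that of Acadl had 25 CpG and 68.0%. That of Cpt1a had 14 CpG and 59.6%, and the median over 32851 mouse promoters was 6 CpG. AGGTCA occurred in 14.0% of promoters of this length, CCAAT in 33.8% and GGGCGG in 32.7%. The glucocorticoid receptor half-site AGAACA, present in 16.1% of promoters, was not found among these letters, nor were the STAT palindrome TTCNNNGAA (7.02%) and its form with 1 more spacer base (5.85%). A match or its absence describes the letters only.

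With IL4 more peaks of these genes gained accessibility than lost it, most of them at Cd36 and Lpl. In WT macrophages 56 of the 127 peaks were called with IL4 against vehicle, 46 higher and 10 lower, at an adjusted p below 0.05 in edgeR's quasi-likelihood test. That is 44.1%, where 35.4% of all tested peaks were called. For higher calls alone the share of all peaks was 19.3%, and for lower calls 16.1%. The median log2 fold change was 0.33 over the 127 peaks and -0.01 over all tested peaks. Of the 46 higher peaks, 33 belonged to Cd36 or Lpl. The share called with IL4 in WT was 55.6% of 36 tested peaks at Cd36 and 63.6% of 22 at Lpl. It was 55.6% at Cpt1a, 42.9% at Fabp5, 40% at Fabp4 and 37.5% at Lipa. At Acadm, Ppargc1b, Acadl and Cpt2 it was 25%, 23.5%, 11.1% and 0%, below the 35.4% of all tested peaks. In 37 of the 46 the 4 IL4 libraries lay above the 4 vehicle libraries without overlap. This was not counted over all tested peaks, and it rests on the same libraries as the calls. Of 12 peaks within 1 kb of a TSS, 3 were called with IL4 in WT, all at start sites of Cd36 and all higher. In KO 6 of the 12 were called with IL4, 5 of them higher (3 at Cd36, 1 each at Lpl and Ppargc1b) and 1, at Cpt2, lower. Over all 13876 tested peaks this close to a TSS, 872 were higher and 5967 lower with IL4 in WT, with a median of -0.21. In KO 783 of them were higher and 5026 lower. The shares called were 49.3% in WT and 41.9% in KO, beside 25% and 50% of the 12 peaks. These counts near a TSS rest on TMM scaling and were not repeated with loess offsets. With those offsets the IL4 value of some promoters changed sign, as given below.

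With Dex more peaks of these genes lost accessibility than gained it. In WT macrophages 29 of 127 peaks were called with Dex against vehicle, 8 higher and 21 lower. That is 22.8%, where 16.6% of all tested peaks were called, 8.56% higher and 8.08% lower. The median log2 fold change was -0.15 over the 127 peaks and 0.01 over all tested peaks. The higher calls were at Acadl (3 peaks), Fabp4 (2), Fabp5 (2) and Cd36 (1). The lower calls were at Cd36 (6), Lpl (6), Fabp5 (4), Lipa (2), Cpt1a, Cpt2 and Ppargc1b (1 each). Without the shallow WT Dex replicate 2, 28 peaks were called, 8 higher and 20 lower. Both treatments were set against the same vehicle libraries, so their values stand side by side below and are not counted against each other.

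**Figure D1:**
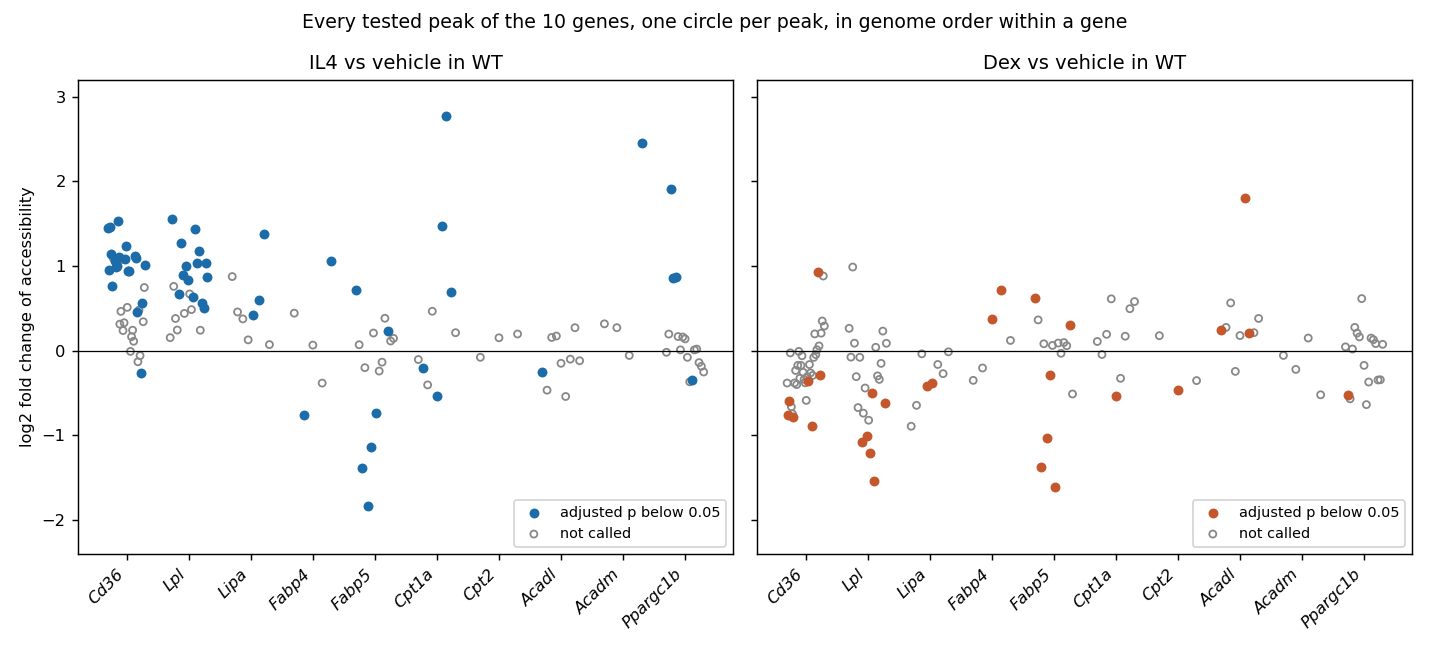
The plots show the log2 fold change (y axis) of every tested peak of the 10 genes (x axis), for IL4 against vehicle in WT on the left and Dex against vehicle in WT on the right. Filled circles are peaks called at an adjusted p below 0.05 and open circles are peaks not called. With IL4 the filled circles of Cd36 and Lpl lie above 0 except for 1 Cd36 peak, and with Dex those of Lpl and Lipa lie below 0.

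The direct contrast of IL4 with Dex in WT called 72 of 127 peaks, 59 higher and 13 lower in IL4. The share of 56.7% stands beside 45.1% of all tested peaks, 23.4% higher and 21.7% lower. The median log2 difference was 0.43 over these peaks and -0.02 over all tested peaks. At Lpl 18 of 22 tested peaks were higher in IL4 than in Dex and none lower, at Cd36 24 of 36 and none lower, and at Lipa 6 of 8 and none lower. At Acadl 4 of 9 were lower in IL4 and none higher. Each of the 5 Fabp4 peaks was called, 2 higher and 3 lower.

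Lpl encodes lipoprotein lipase, the secreted enzyme that frees fatty acids from circulating triglycerides. Its 23 peaks summed to 181.0 ± 10.7 CPM in WT IL4, 93.3 ± 3.75 CPM in WT Dex and 109.9 ± 2.89 CPM in WT vehicle. The libraries of these 3 groups did not overlap, with IL4 highest and Dex lowest. In KO cells the sums were 180.9 ± 13.7 CPM with IL4, 103.8 ± 11.4 with Dex and 121.3 ± 11.1 with vehicle, and here the Dex and vehicle libraries overlapped. With IL4 in WT 14 of 22 tested peaks rose and none fell, and with Dex 6 fell and none rose.

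The Lpl peak with the smallest p in the Dex contrast lay 31.2 kb downstream of the Lpl TSS, beyond the end of the gene (chr8:68911510-68911975, mm10). It held 11.5, 12.1, 10.6 and 10.3 CPM in the WT IL4 libraries and 1.83, 0.369, 1.23 and 1.54 CPM in the WT Dex libraries, against 3.00, 5.36, 4.59 and 4.02 CPM in the WT vehicle libraries. The 3 groups were fully apart, and the lowest value was that of the shallow Dex replicate 2. It rose with IL4, with a log2 fold change of 1.43 ± 0.15 (SE, adjusted p = 8.11e-13), and fell with Dex, at -1.54 ± 0.22 (adjusted p = 4.78e-08). IL4 and Dex differed there by 2.98 ± 0.18 on the log2 scale (adjusted p = 3.06e-25). In KO libraries the same peak averaged 10.7 ± 1.78 CPM with IL4, 2.14 ± 0.624 with Dex and 4.80 ± 0.312 with vehicle, again without overlap.

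A wider peak 34.4 kb downstream of the Lpl TSS (chr8:68914501-68915422) had the smallest p of the locus with IL4. It held 23.1, 27.2, 26.6 and 27.1 CPM in WT IL4 and 12.1, 12.2, 10.7 and 15.9 CPM in WT Dex, against 11.5, 13.4, 13.5 and 12.6 CPM in WT vehicle. Only the IL4 libraries stood apart: the log2 fold change was 1.04 ± 0.10 with IL4 (adjusted p = 9.28e-16) and 0.04 ± 0.11 with Dex (adjusted p = 0.851). At the Lpl promoter the WT libraries averaged 16.6 ± 2.26 CPM with IL4, 11.5 ± 1.42 with Dex and 14.1 ± 1.06 with vehicle. Neither change was called in WT, although each passed under some alternatives, with log2 fold changes of 0.24 ± 0.11 for IL4 (adjusted p = 0.0718) and -0.31 ± 0.11 for Dex (adjusted p = 0.053). In KO the promoter rose by 0.32 ± 0.11 with IL4 (adjusted p = 0.0162), a call that was lost without KO IL4 replicate 1 (adjusted p = 0.117) or KO vehicle replicate 4 (adjusted p = 0.076).

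Lipa encodes lysosomal acid lipase, which releases fatty acids from engulfed cholesteryl esters and triglycerides. Its 8 peaks summed to 135.6 ± 6.23 CPM in WT IL4, 97.4 ± 4.15 in WT Dex and 112.1 ± 5.07 in WT vehicle, without overlap between the 3 groups. The KO sums were 134.5 ± 4.54, 101.8 ± 1.56 and 119.7 ± 6.91 CPM with IL4, Dex and vehicle, also without overlap. In WT 3 of 8 peaks rose with IL4 and none fell, and 2 fell with Dex and none rose.

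Inside the Lipa gene, 5.71 kb from the TSS (chr19:34521334-34522194), the peak held 25.0, 26.9, 23.2 and 27.9 CPM in WT IL4 and 14.6, 14.2, 15.3 and 16.2 CPM in WT Dex, against 16.6, 17.5, 16.4 and 17.7 CPM in WT vehicle. Every IL4 library was above, and every Dex library below, the vehicle libraries. The IL4 change was 0.60 ± 0.08 (adjusted p = 4.02e-09) and the Dex change, not called, -0.16 ± 0.09 (adjusted p = 0.218). At 11.4 kb the peak had 33.9 ± 2.55 CPM in WT IL4, 23.7 ± 2.87 in WT Dex and 31.0 ± 2.56 in WT vehicle. It fell with Dex, with a log2 fold change of -0.41 ± 0.08 (adjusted p = 5.1e-05), and IL4 gave 0.13 ± 0.08 (adjusted p = 0.2). The IL4 value passed the threshold with scaling by total counts (0.18, adjusted p = 0.0328) and with loess offsets (0.29, adjusted p = 0.000439). One Lipa peak, 7.47 kb inside the gene and picked out after its values were seen, was called in both directions. It averaged 22.9 ± 1.92 CPM in WT IL4, 12.9 ± 1.22 in WT Dex and 17.2 ± 0.822 in WT vehicle, with log2 fold changes of 0.42 ± 0.09 for IL4 (adjusted p = 0.000113) and -0.38 ± 0.10 for Dex (adjusted p = 0.00268). The Lipa promoter was at 44.1 ± 2.29, 42.2 ± 3.28 and 42.1 ± 2.88 CPM in WT IL4, WT Dex and WT vehicle, and was called in neither contrast. With loess offsets its IL4 value, 0.07 ± 0.07 (adjusted p = 0.449), became 0.28 and was called (adjusted p = 6.21e-05).

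**Figure D2:**
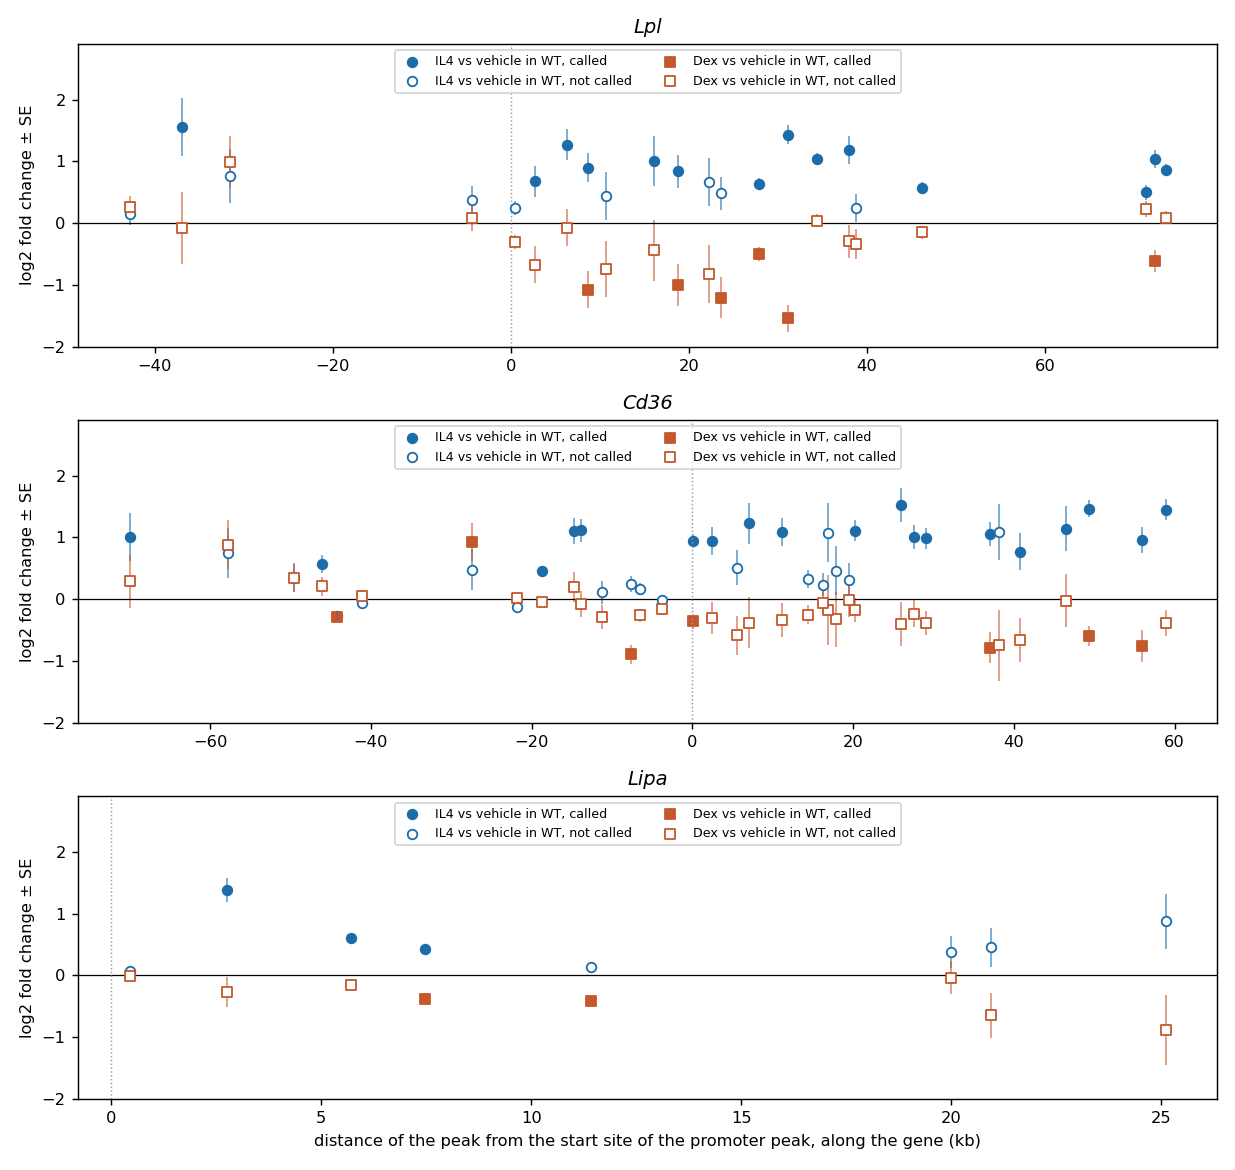
Each panel shows the log2 fold change ± SE (y axis) of every tested peak at Lpl, Cd36 and Lipa against its distance along the gene from the start site of the promoter peak (x axis, kb; dotted line at 0). Blue circles are IL4 against vehicle and orange squares Dex against vehicle, both in WT, filled where called at an adjusted p below 0.05. At Lpl the peak 31.2 kb downstream has the most separated pair, 1.43 for IL4 and -1.54 for Dex.

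Cd36 encodes a scavenger receptor that imports long-chain fatty acids and oxidised lipoproteins. Its 37 peaks, the most of the 10 genes, summed to 291.9 ± 11.1 CPM in WT IL4, 200.6 ± 6.46 in WT Dex and 226.5 ± 7.49 in WT vehicle, and the 3 groups did not overlap. With IL4 in WT 19 of 36 tested peaks rose and 1 fell, and with Dex 1 rose and 6 fell. Over its tested peaks the median log2 fold change was 0.85 with IL4 and -0.26 with Dex. The gains with IL4 ran from 58.9 kb downstream of the TSS, beyond the gene and nearer to Sema3c, to 16.9 kb upstream of the nearest Cd36 start site, and 12 of them were at least 2-fold.

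The main Cd36 promoter peak (chr5:17835550-17836164), which holds all 250 bases printed above, had 23.6, 24.2, 26.5 and 30.7 CPM in WT IL4 and 9.08, 8.49, 12.1 and 11.6 CPM in WT Dex, against 13.1, 13.0, 13.7 and 14.8 CPM in WT vehicle. All IL4 libraries were higher and all Dex libraries lower than all vehicle libraries. The IL4 change was 0.94 ± 0.11 (adjusted p = 1.54e-09). The Dex change of -0.36 ± 0.12 was close to the threshold (adjusted p = 0.0393) and was lost under 7 of the alternatives, among them leaving out the shallow WT Dex replicate 2 (adjusted p = 0.0903). In KO the promoter averaged 25.8 ± 3.77 CPM with IL4, 12.4 ± 2.42 with Dex and 14.8 ± 1.86 with vehicle. There IL4 was called at 0.81 ± 0.11 (adjusted p = 6.78e-08) and Dex was not (-0.24 ± 0.12, adjusted p = 0.193). The other 2 peaks within 1 kb of a Cd36 start site, named after their values were seen, rose with IL4 in WT by 1.12 ± 0.18 and 1.10 ± 0.21 on the log2 scale.

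Far inside Cd36, 49.3 kb from the TSS (chr5:17785998-17787149), a peak held 13.8, 17.1, 16.8 and 15.5 CPM in WT IL4 and 2.46, 3.88, 4.76 and 4.11 CPM in WT Dex, against 5.61, 3.69, 6.09 and 7.42 CPM in WT vehicle. The IL4 libraries were apart from the rest, while Dex and vehicle overlapped. The log2 fold change was 1.47 ± 0.13 with IL4 (adjusted p = 1.57e-15) and -0.59 ± 0.17 with Dex (adjusted p = 0.00676). The Dex call was lost without WT Dex replicate 1 (adjusted p = 0.0763) or WT vehicle replicate 4 (adjusted p = 0.0747). A peak 6.32 kb inside the gene from an upstream start site (chr5:17843349-17843586) was called with Dex and not with IL4. It averaged 8.12 ± 0.699 CPM in WT IL4, 3.58 ± 0.476 in WT Dex and 6.83 ± 0.874 in WT vehicle. The change was -0.90 ± 0.15 with Dex (adjusted p = 1.69e-06) and 0.24 ± 0.13 with IL4 (adjusted p = 0.144).

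Fabp4 and Fabp5 encode small proteins that carry fatty acids in the cytosol. The sum over the 5 Fabp4 peaks was 24.2 ± 1.51 CPM in WT IL4 and 26.9 ± 1.41 in WT Dex, against 21.9 ± 1.32 in WT vehicle. The IL4 range met that of each neighbour, and the Dex libraries all exceeded vehicle. Upstream of Fabp4, 1 peak was called with IL4 and its neighbour with Dex. The peak 5.01 kb upstream (chr3:10213213-10213954) held 6.61, 8.84, 7.65 and 7.45 CPM in WT IL4 and 4.01, 5.54, 3.77 and 3.64 CPM in WT Dex, against 3.30, 3.69, 3.74 and 4.12 CPM in WT vehicle. It stood apart only with IL4, at 1.06 ± 0.15 (adjusted p = 9.77e-09), and Dex gave 0.12 ± 0.17 (adjusted p = 0.694). The peak 3.45 kb upstream (chr3:10211873-10212179) held 2.73, 2.87, 3.26 and 2.61 CPM in WT IL4 and 6.05, 6.46, 5.83 and 6.25 CPM in WT Dex, against 3.69, 3.46, 3.84 and 3.92 CPM in WT vehicle. Here the 4 Dex libraries were highest and the 4 IL4 libraries lowest. It rose with Dex by 0.71 ± 0.15 (adjusted p = 0.000242), while the IL4 change of -0.38 ± 0.18 was not called (adjusted p = 0.0796) except with loess offsets (-0.46, adjusted p = 0.036). The Fabp4 promoter averaged 9.85 ± 0.658 CPM in WT IL4, 12.3 ± 0.950 in WT Dex and 9.36 ± 1.42 in WT vehicle. It rose with Dex by 0.38 ± 0.12 (adjusted p = 0.0139), a call lost without WT Dex replicate 1 (adjusted p = 0.0518) or WT vehicle replicate 3 (adjusted p = 0.116).

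At Fabp5 more peaks were called lower than higher with each treatment in WT. With IL4 in WT 2 of 14 peaks rose and 4 fell, and the counts with Dex were also 2 and 4. In KO they were 2 and 4 with IL4 and 2 and 2 with Dex. The median log2 fold change over the 14 peaks in WT was -0.03 with IL4 and 0.06 with Dex. The peak 28.5 kb upstream (chr3:9983749-9984493) held 13.6, 10.1, 10.8 and 10.3 CPM in WT IL4 and 21.4, 20.9, 19.3 and 19.5 CPM in WT Dex, against 25.2, 26.6, 23.8 and 22.9 CPM in WT vehicle. No library of one group reached the next group, with IL4 lowest. The change was -1.14 ± 0.09 with IL4 (adjusted p = 2.22e-18) and -0.29 ± 0.09 with Dex (adjusted p = 0.0122), and this Dex call was lost without WT vehicle replicate 2 (adjusted p = 0.0589) or WT Dex replicate 4 (adjusted p = 0.0525). At 7.66 kb upstream (chr3:10004603-10005254) Dex had the lower level. That peak held 4.38, 3.10, 3.36 and 3.63 CPM in WT IL4 and 2.96, 1.11, 2.13 and 1.35 CPM in WT Dex, against 8.37, 6.59, 3.84 and 4.53 CPM in WT vehicle. The Dex libraries lay below vehicle, and the IL4 and vehicle ranges overlapped. It fell with Dex, at -1.61 ± 0.21 (adjusted p = 2.49e-08), and with IL4, at -0.73 ± 0.19 (adjusted p = 0.00138), and the IL4 call was lost without WT vehicle replicate 1 (adjusted p = 0.0537). The Fabp5 promoter was at 24.2 ± 1.65 CPM in WT IL4, 26.3 ± 1.87 in WT Dex and 26.6 ± 1.11 in WT vehicle, and was called in neither contrast.

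**Figure D3:**
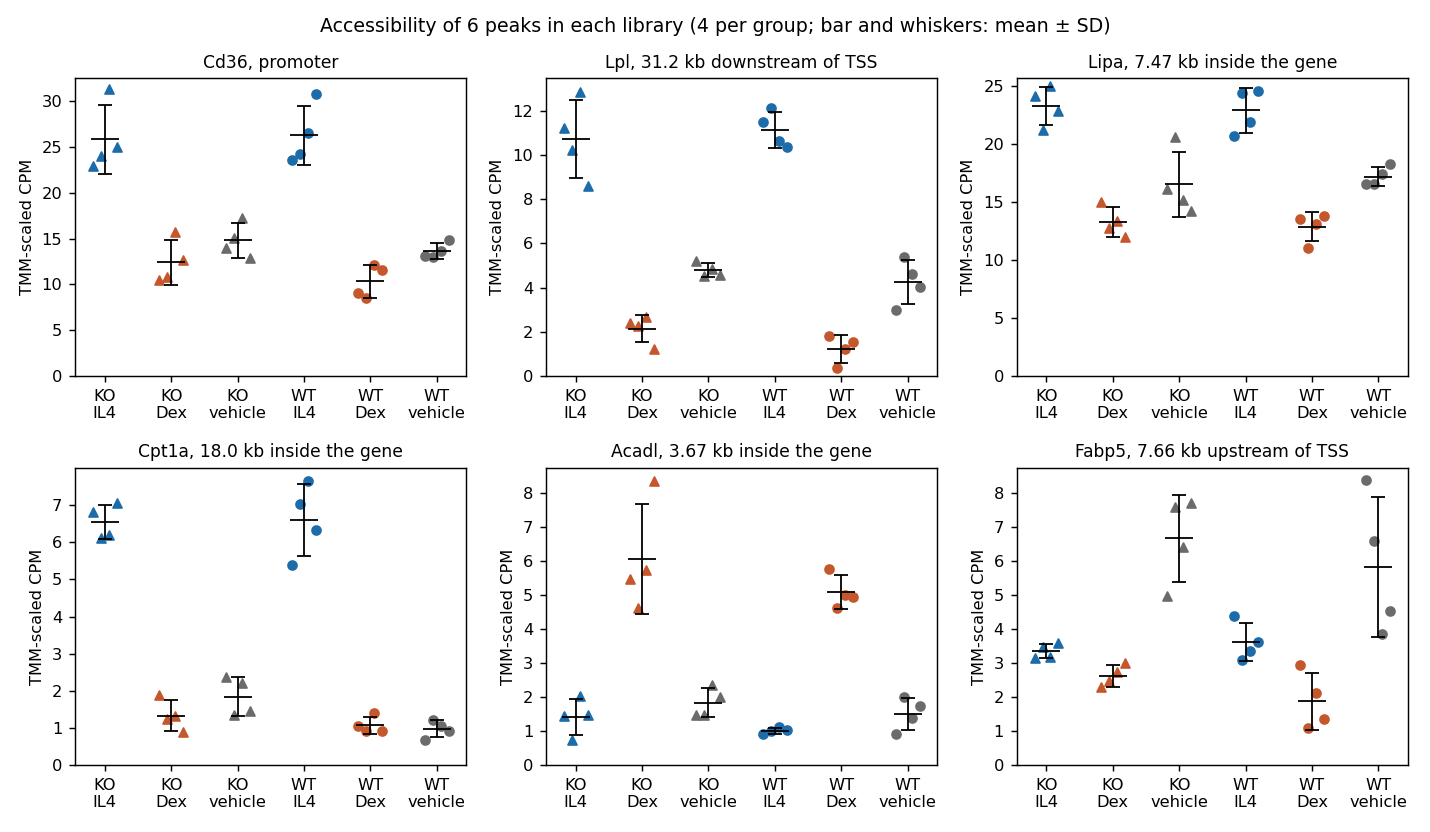
Points show TMM-scaled CPM (y axis) of 6 peaks in each of the 24 libraries, by group (x axis), with triangles for KO and circles for WT, and bars for mean ± SD of 4 libraries. Cd36, Lpl, Lipa and Cpt1a peaks are highest with IL4 in both genotypes, the Acadl peak is highest with Dex and the Fabp5 peak is highest with vehicle.

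Cpt1a and Cpt2 encode the carnitine palmitoyltransferases of the outer and inner mitochondrial membrane, and CPT1A sets the rate of entry. At Cpt1a the gain with IL4 was confined among its 9 peaks to 3 inside the gene, 16, 18 and 30.3 kb from the TSS, while 2 peaks fell. The peak at 18 kb (chr19:3341023-3341496) held 5.37, 7.02, 7.65 and 6.33 CPM in WT IL4 and 1.06, 0.923, 1.40 and 0.933 CPM in WT Dex, against 0.691, 1.23, 1.07 and 0.928 CPM in WT vehicle. IL4 libraries were far above both other groups, which overlapped. The IL4 change of 2.78 ± 0.21 (adjusted p = 3.86e-20) was the largest among the 127 peaks, and Dex gave 0.17 ± 0.30 (adjusted p = 0.765). In KO the peak averaged 6.54 ± 0.454 CPM with IL4 and 1.85 ± 0.517 with vehicle, a change of 1.89 ± 0.19 (adjusted p = 2.64e-14). The peak at 16 kb, named after its values were seen, rose with IL4 by 1.46 ± 0.16 in KO and 1.48 ± 0.17 in WT. Against this, the Cpt1a promoter held 49.0, 55.7, 57.8 and 61.4 CPM in WT IL4 and 62.5, 72.0, 63.0 and 63.6 CPM in WT Dex, against 61.7, 58.8, 58.0 and 61.7 CPM in WT vehicle. IL4 and vehicle libraries overlapped, and neither IL4 (-0.10 ± 0.07, adjusted p = 0.221) nor Dex (0.11 ± 0.07, adjusted p = 0.277) was called. With loess offsets and a replicate block the sign of the IL4 value at this promoter reversed, to 0.14, and it was called higher (adjusted p = 0.0497). In KO the IL4 value was called higher with loess offsets alone (0.15, adjusted p = 0.0442).

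The Cpt1a peak at 10.9 kb (chr19:3333948-3334470) was lower with each treatment. It held 4.37 ± 0.205 CPM in WT IL4 and 4.21 ± 0.878 in WT Dex, against 6.39 ± 1.04 in WT vehicle. Both log2 fold changes were -0.53 ± 0.15, with adjusted p = 0.00281 for IL4 and 0.00643 for Dex, the Dex call being lost without WT vehicle replicate 4 (adjusted p = 0.06). Cpt2 had 3 peaks, of which none was called with IL4 in WT. The Cpt2 peak 11.8 kb upstream averaged 7.18 ± 0.989 CPM in WT IL4 and 4.60 ± 0.416 in WT Dex, against 6.47 ± 0.460 in WT vehicle. It fell with Dex, at -0.46 ± 0.14 on the log2 scale (adjusted p = 0.0158), a call lost without WT Dex replicate 1 (adjusted p = 0.0609). Its promoter was at 26.8 ± 2.16, 32.3 ± 2.48 and 28.2 ± 1.72 CPM in WT IL4, WT Dex and WT vehicle, with neither treatment called in WT. In KO the Cpt2 promoter fell with IL4 by 0.25 on the log2 scale (SE 0.08, adjusted p = 0.00872), a call lost without KO vehicle replicate 3 (adjusted p = 0.0845) and with loess offsets (adjusted p = 0.216).

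Acadl and Acadm encode the long-chain and medium-chain acyl-CoA dehydrogenases, which take the first step of each round of oxidation. At Acadl 5 of 9 peaks rose with Dex in KO and 3 of 9 in WT, and none fell in either. Inside the gene, 3.67 kb from the TSS (chr1:66859501-66859778), the peak held 0.909, 0.995, 1.12 and 1.02 CPM in WT IL4 and 5.77, 4.62, 5.01 and 4.95 CPM in WT Dex, against 0.922, 2.01, 1.39 and 1.75 CPM in WT vehicle. Each Dex library exceeded every other WT library. It rose with Dex by 1.76 ± 0.20 in KO (adjusted p = 2.16e-11) and 1.80 ± 0.21 in WT (adjusted p = 1.27e-10). The IL4 change in WT, -0.54 ± 0.30, was not called (adjusted p = 0.152) but passed without WT vehicle replicate 1 (adjusted p = 0.0494). The KO libraries averaged 1.43 ± 0.524 CPM with IL4, 6.04 ± 1.61 with Dex and 1.84 ± 0.424 with vehicle.

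The Acadl promoter had 27.8 ± 1.83 CPM in WT IL4, 34.6 ± 1.16 in WT Dex and 30.0 ± 2.59 in WT vehicle, with all Dex libraries above all vehicle libraries. The Dex change of 0.21 ± 0.07 was just past the threshold (adjusted p = 0.0426) and missed it under 11 alternatives, such as scaling by total counts (adjusted p = 0.126). In KO it was 0.30 ± 0.07 (adjusted p = 0.00185). A large peak assigned to Acadl, 46.3 kb from its TSS, lies in Kansl1l and nearer to that gene. It averaged 59.8 ± 2.10 CPM in WT IL4, 84.0 ± 2.11 in WT Dex and 71.0 ± 7.03 in WT vehicle, with log2 fold changes of -0.25 ± 0.07 (adjusted p = 0.00138) for IL4 and 0.24 ± 0.06 (adjusted p = 0.00451) for Dex. The IL4 value reversed to 0.0064 with loess offsets, and the Dex call was lost with them (adjusted p = 0.0507) and without WT vehicle replicate 3 (adjusted p = 0.0673).

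Acadm had 1 peak called with IL4 in WT, 13.7 kb upstream (chr3:153957964-153958681). It held 7.19, 6.09, 6.53 and 6.05 CPM in WT IL4 and 0.493, 1.29, 1.15 and 0.700 CPM in WT Dex, against 0.999, 1.34, 1.50 and 0.928 CPM in WT vehicle. IL4 libraries were all above 6 CPM and the other groups overlapped below it. The change was 2.45 ± 0.21 with IL4 (adjusted p = 1.3e-17) and -0.52 ± 0.31 with Dex (adjusted p = 0.272). In KO IL4 gave 1.86 ± 0.20 (adjusted p = 9.01e-13). The Acadm promoter, at 65.8 ± 3.53, 75.9 ± 4.69 and 68.3 ± 3.02 CPM in WT IL4, WT Dex and WT vehicle, was called in neither contrast with vehicle. Its IL4 value of -0.06 reversed with loess offsets to 0.20 and was then called higher (adjusted p = 0.000816). IL4 against Dex in WT was called lower there and turned to a higher call with these offsets (0.15, adjusted p = 0.00835). The Dex value was called higher without WT Dex replicate 4 (0.19, adjusted p = 0.0305).

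Ppargc1b encodes PGC-1β, a coactivator that raises genes of mitochondrial oxidation. Of its 17 tested peaks 3 rose and 1 fell with IL4 in WT, and 1 fell with Dex. The peak 76.3 kb from the TSS held 5.95, 6.73, 8.67 and 6.43 CPM in WT IL4 and 1.48, 1.29, 1.40 and 0.933 CPM in WT Dex, against 1.84, 1.56, 2.24 and 1.65 CPM in WT vehicle. The 3 groups were apart, with IL4 highest and Dex lowest. It rose with IL4 by 1.91 ± 0.18 (adjusted p = 3.24e-15), and Dex gave -0.57 ± 0.25 (adjusted p = 0.113). The peak at 79.2 kb averaged 14.6 ± 1.13 CPM in WT IL4, 8.67 ± 1.32 in WT Dex and 12.8 ± 1.82 in WT vehicle, and fell with Dex by 0.53 on the log2 scale (SE 0.12, adjusted p = 0.000371). Both lie inside Ppargc1b but nearer to Pde6a. The promoter of Ppargc1b was at 17.2 ± 0.608 CPM in WT IL4, 18.1 ± 0.894 in WT Dex and 17.1 ± 1.84 in WT vehicle, and these libraries overlapped. In KO it rose with Dex by 0.36 ± 0.09 (adjusted p = 0.00226) and with IL4 by 0.23 ± 0.09 (adjusted p = 0.0417), the IL4 call being lost under 8 alternatives.

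The genotypes did not differ at any of these peaks past the threshold. Between KO and WT no peak of the 127 was called in IL4, Dex or vehicle in edgeR's test, where 0.841%, 0.953% and 0.616% of all tested peaks were called. At an unadjusted p below 0.05 there were 9, 8 and 13 peaks, and DESeq2 also called 0. Of all tested peaks with an assigned gene, 901, 1154 and 1145 of 13876 within 1 kb of a TSS had such a p. Farther from a TSS there were 9673, 10824 and 9613 of 102506. The difference between genotypes in the IL4 effect was called at none of the 127 peaks and 0.00231% of all peaks, and that in the Dex effect at none and 0%. At an unadjusted p below 0.05 there were 5 and 4 such peaks, and DESeq2 again called 0. Over all peaks with an assigned gene these counts were 388 and 277 of the 13876 within 1 kb of a TSS. They were 4389 and 3749 of the 102506 farther away. Leaving out 1 library brought a single peak past the threshold in each contrast. The Fabp5 peak 28.5 kb upstream was lower in KO vehicle without KO vehicle replicate 2 (-0.38, adjusted p = 0.0435). The Acadm peak 12.0 kb inside the gene was higher in KO IL4 without KO IL4 replicate 3 (1.19, adjusted p = 0.0296). The Lpl promoter was higher in KO Dex without KO Dex replicate 4 (0.46, adjusted p = 0.0213) or WT Dex replicate 3 (0.44, adjusted p = 0.0497).

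Within KO cells IL4 against vehicle called 54 peaks, 46 higher and 8 lower (31% of all tested peaks called, 17% higher and 13.9% lower), with a median of 0.31. Dex against vehicle in KO called 28 peaks, 12 higher and 16 lower (13.6% of all tested peaks called, 6.97% higher and 6.63% lower), with a median of -0.15. This split moved to 8 higher and 21 lower with scaling by total counts and to 10 and 20 with loess offsets, and without KO Dex replicate 4 only 18 peaks were called, 7 higher and 11 lower. IL4 against Dex in KO called 76 peaks, 62 higher and 14 lower (42.3% of all tested peaks called, 21.9% higher and 20.4% lower). Of the 54 peaks called with IL4 in KO and the 56 in WT, 44 were called in both, 81.5% of the KO list and 78.6% of the WT list, and each moved in the same direction. For Dex 19 were shared, 67.9% of the 28 in KO and 65.5% of the 29 in WT, again in the same direction. Across the 127 peaks the effects in KO and WT had a Pearson r of 0.86 for IL4 and 0.79 for Dex. Neither the overlap of calls nor r was computed over all tested peaks, so neither can be read as particular to these genes. Peaks of one gene are not independent and all peaks share the libraries, so this is a description.

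At 3 peaks chosen after their values were seen, the genotypes did not overlap in 1 condition but did not pass the test. They are examples of several: with vehicle the KO libraries lay fully above WT at 3 uncalled peaks and fully below at 4. These numbers were 2 and 2 with Dex and 2 and 4 with IL4, and the share over all tested peaks was not counted. At the Cpt1a peak 18 kb from the TSS the KO vehicle libraries (2.36, 1.35, 2.22 and 1.47 CPM) all lay above the WT vehicle libraries (0.691, 1.23, 1.07 and 0.928 CPM), a log2 difference of 0.88 ± 0.28 with adjusted p = 0.191. With IL4 the KO and WT means were 6.54 and 6.59 CPM. A low Acadm peak 12.0 kb inside the gene held 2.30, 2.04, 1.15 and 1.41 CPM in KO IL4, against 0.661, 0.819, 0.816 and 1.02 CPM in WT IL4. The libraries did not overlap, and the log2 difference was 1.05 ± 0.29 (adjusted p = 0.0593). A Ppargc1b peak 39.9 kb upstream held 1.49 ± 0.392 CPM in KO vehicle against 2.55 ± 0.744 in WT vehicle (log2 difference -0.76 ± 0.24, adjusted p = 0.171). In KO it rose with IL4 by 0.84 ± 0.23 (adjusted p = 0.0029) and with Dex by 1.18 ± 0.22 (adjusted p = 2.07e-05), and in WT it was called with neither. Both rises are set against the same KO vehicle libraries, and the difference between genotypes was called for neither treatment effect.

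**Figure D4:**
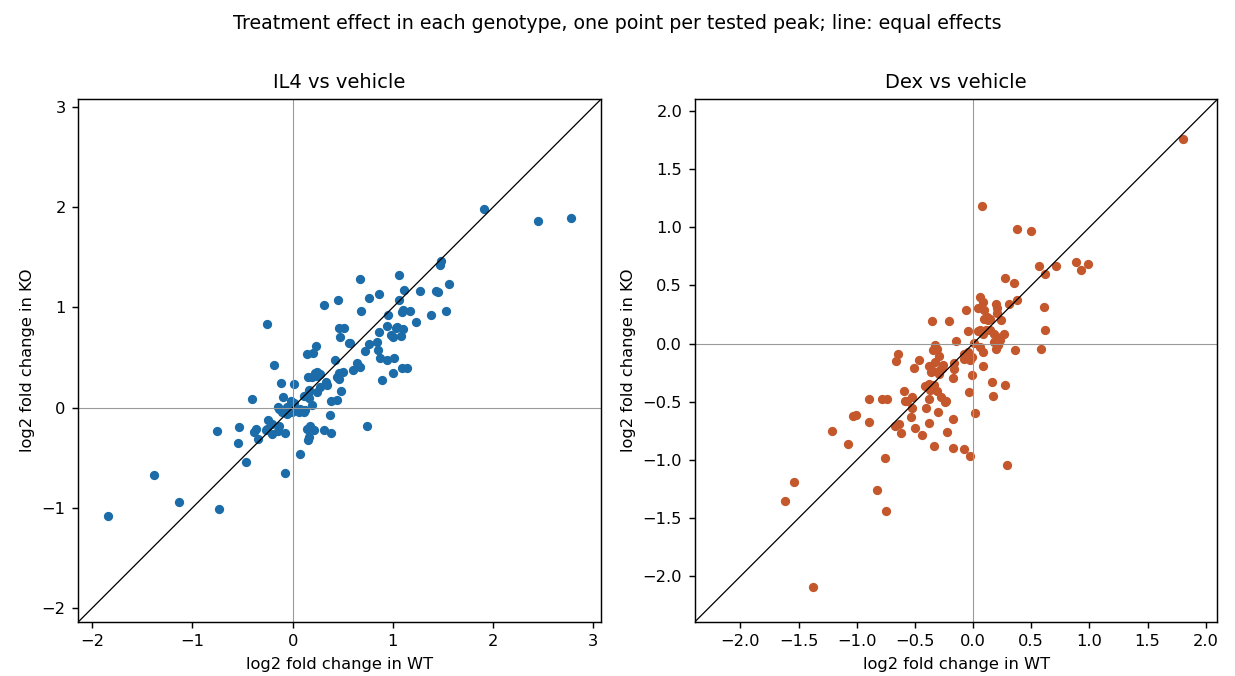
Each point is a tested peak of the 10 genes, with its log2 fold change against vehicle in KO on the y axis and in WT on the x axis, for IL4 on the left and Dex on the right; the line marks equal effects. The effects had a Pearson r of 0.86 and 0.79, which does not measure closeness to the line. The IL4 effect in KO minus that in WT was positive at 52 of 127 peaks, with a median of -0.07. For Dex it was positive at 58, with a median of -0.01. The Cpt1a peak at the far right of the IL4 panel lies below the line, at 1.89 in KO and 2.78 in WT.

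Other genes of fatty acid handling had called peaks in both directions. Of 110 tested peaks at 12 other genes of uptake, activation and transport, 24 were higher and 23 lower with IL4 in WT, and 22 higher and 7 lower with Dex. These are 42.7% and 26.4%, beside 35.4% and 16.6% of all tested peaks called with IL4 and Dex. At Acsl4, which activates polyunsaturated fatty acids to acyl-CoA, a peak 123 kb upstream had 10.1 ± 1.16 CPM in WT IL4 against 1.37 ± 0.324 in WT vehicle, a log2 fold change of 2.87 ± 0.18 (adjusted p = 2.18e-24), and another 91.1 kb upstream rose with Dex by 2.13 ± 0.29 (adjusted p = 1.08e-08). At Scarb1, the receptor for high-density lipoprotein, separate peaks downstream of the TSS rose with IL4 (1.35 ± 0.13, at 35.6 kb) and with Dex (1.25 ± 0.13, at 11.7 kb). Of 72 peaks at other genes of mitochondrial oxidation, 11 were higher and 13 lower with IL4, and 6 higher and 5 lower with Dex, which is 33.3% and 15.3%. At Crat, the carnitine acetyltransferase, a peak 15.9 kb downstream of the TSS had 6.49 ± 1.15 CPM in WT IL4 against 0.623 ± 0.236 in WT vehicle (log2 fold change 3.33 ± 0.25, adjusted p = 9.87e-21). At Acad11, an acyl-CoA dehydrogenase, a peak 11.1 kb downstream rose with IL4 by 2.15 ± 0.21 (adjusted p = 9.75e-15). With Dex the 2 peaks with the smallest p were 1 at Acaa2, a thiolase of the mitochondrial matrix, which rose by 0.93 ± 0.19 (adjusted p = 0.000108), and 1 at Acad9, also an acyl-CoA dehydrogenase, at -1.20 ± 0.28 (adjusted p = 0.00093).

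Peroxisomal oxidation genes had 42 tested peaks, 12 higher and 1 lower with IL4 and 7 higher and 1 lower with Dex. The total shares, 31.0% and 19.0%, are close to those over all tested peaks. The split by direction is not: over all peaks 19.3% were higher and 16.1% lower with IL4, and 8.56% and 8.08% with Dex. The peaks with the smallest p in both contrasts were at Abcd2, a peroxisomal fatty acyl-CoA transporter. A peak 91.2 kb upstream rose with IL4 by 1.12 ± 0.14 and with Dex by 0.87 ± 0.15. At 19.7 kb downstream of the TSS the level was 20.2 ± 1.06 CPM in WT IL4 and 14.1 ± 0.923 in WT Dex, against 9.77 ± 0.923 in WT vehicle. Genes of lipid droplets and lipolysis had 43 tested peaks, 8 higher and 9 lower with IL4 and 6 higher and 2 lower with Dex, or 39.5% and 18.6%. At Hilpda, an inhibitor of lipolysis on lipid droplets, a peak 8 kb upstream rose with IL4 by 1.31 ± 0.14 (adjusted p = 6.77e-13). At Plin2, the lipid droplet coat protein, a peak 6.57 kb upstream fell with IL4 by 0.72 on the log2 scale (SE 0.09), and another 15.2 kb downstream of the TSS rose with Dex by 0.83 ± 0.13. At Mgll, the monoacylglycerol lipase, a peak 9.96 kb upstream fell with Dex, at -0.88 ± 0.17 (adjusted p = 4.93e-05). Regulators of oxidation had 136 tested peaks, 37 higher and 23 lower with IL4 and 19 higher and 7 lower with Dex, or 44.1% and 19.1%. At Prkaa1, a catalytic subunit of AMP-activated kinase, a peak 1.92 kb downstream of the TSS rose with IL4 by 1.93 ± 0.16 (adjusted p = 1.89e-18) and 1 lying 17.1 kb upstream rose with Dex by 0.79 ± 0.08 (adjusted p = 1.12e-13). At Rxra, which encodes a partner of nuclear receptors, a peak 48.1 kb downstream rose with Dex by 0.79 ± 0.10 (adjusted p = 3.86e-10). At Pparg, the nuclear receptor that IL4 is known to engage, the peak 11.3 kb upstream had 15.6 ± 2.12 CPM in WT IL4 against 4.81 ± 0.533 in WT vehicle (log2 fold change 1.69 ± 0.14, adjusted p = 2.5e-17). The medians over these 5 lists ran from -0.02 to 0.21 with IL4 and from 0.01 to 0.13 with Dex, against -0.01 and 0.01 over all tested peaks.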

How the data were processed

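ATAC-seq was measured in 24 libraries, 4 in each of 6 groups. The deposited counts are whole numbers of reads per peak over one peak set for all libraries, not normalized. The authors' deposited table gives log2 fold changes and p-values of their comparisons, scores such as the F statistic and the distance to the TSS, and the nearest gene of each peak. Bowtie2, MACS2, featureCounts, fastp, SAMtools and edgeR, and the mm10 build, are listed in the submitters' processing notes without versions or roles. Library totals of 5820149 to 21939330 counts gave a median of 33 counts per tested peak and library.

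Counts were fitted with edgeR 4.0.16 in R 4.3.3: filterByExpr (14308 peaks removed, 5 of them members), TMM factors (0.935 to 1.07), and a robust quasi-likelihood fit of 1 mean per group over all 24 libraries. P-values were adjusted by Benjamini-Hochberg over 130103 peaks and called below 0.05. The SE is the log2 fold change divided by the root of F. The same fit was also run on counts simulated from its own means and dispersions, with the outcome not given here. Peaks were named by rule: each gene's promoter peak and its peaks with the smallest p with IL4 and Dex in WT, and the 2 peaks of each pathway list with the smallest p in each contrast. They are given per library or as mean ± SD, and those of pathway lists as levels or log2 fold changes. Alternatives were other scalings, no filter, DESeq2 1.42.0, a replicate block, contrast groups only, and each library left out. The genes, lists and tests were chosen with earlier results of these data known.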

Additional observations from a re-analysis of the deposited data

Results flagged for a closer look

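Of 168 groups of 4 libraries checked at 28 peaks, 8 had 1 library far from the other 3 by Dixon's test at the 95% level, and chance gives about 1 in 20. WT Dex replicate 2, the shallowest library, was highest at the Cpt1a promoter (72.0 CPM, against 62.5, 63.0 and 63.6 in the others) and at the Cpt2 promoter (36.0 CPM, against 30.7, 31.1 and 31.5). KO Dex replicate 4 was highest at the Acadl promoter (34.9 CPM, against 33.0, 33.1 and 33.3). KO vehicle replicate 1 was lowest at the Acadl peak inside Kansl1l (59.0 CPM, against 72.4, 72.5 and 73.9) and highest at the Cd36 peak 6.32 kb inside the gene (8.20 CPM, against 5.89, 6.03 and 6.14). WT vehicle replicate 3 was lowest at the Fabp4 promoter (7.26 CPM, against 9.83, 10.1 and 10.3). At the Lpl peak 34.4 kb downstream the lowest were KO IL4 replicate 4 (20.1 CPM, against 25.2, 25.9 and 26.0) and WT IL4 replicate 1 (23.1 CPM, against 26.6, 27.1 and 27.2).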

How the results depend on the processing

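Over the 66 peaks named by the authors' deposited table alone, 36 were called with IL4 in WT and 35 with IL4 in KO. For IL4 against Dex 44 were called in WT and 47 in KO. These counts are lower because fewer peaks were counted, but each is a larger share of its peaks than over the 127. The share over all peaks of the deposited table was not counted. With only the groups of the contrast, 1 peak was called between KO and WT in IL4. Leaving out each library in turn gave 46 to 56 peaks for IL4 in KO, 18 to 29 for Dex in KO, 51 to 56 for IL4 in WT, 22 to 28 for Dex in WT, 68 to 79 for IL4 against Dex in KO and 66 to 73 in WT, and 0 to 1 between KO and WT in each condition. DESeq2 called 48 peaks with IL4 in KO, 23 with Dex in KO, 50 with IL4 in WT and 23 with Dex in WT. Without peaks nearer another gene, an alternative chosen after seeing the data, 49, 24, 51 and 26 were called. The labels do not say that replicate numbers pair the libraries, and not every same-number correlation exceeded 0.1 (-0.110 to 0.296, 15 of 60 over 0.1, against 3 of 180 between different numbers). That 22 of 24 libraries correlated best with their own number is a hint from the data, not the design, that same-numbered libraries share something. A replicate block gave 55 peaks for IL4 in KO, 28 for Dex in KO, 56 for IL4 in WT and 31 for Dex in WT. Of the values of single peaks under alternatives, 2121 stayed on the same side of the threshold (some that were not called changed sign), 66 lost the call, 40 gained one, and 13 changed sign where a call was made before or after. These 13 all arose with loess offsets, and the cause was not tested. With loess offsets alone these were the Acadl peak in Kansl1l (0.0064) and the Acadm promoter (0.20) for IL4 in WT, the Cpt1a (0.15) and Lipa (0.15) promoters for IL4 in KO, and the Cpt1a (0.13) and Acadm (0.15) promoters for IL4 against Dex in WT. With the replicate block and loess offsets they were the Cpt1a promoter (0.14), the Acadl peak (0.00767) and the Acadm promoter (0.20) for IL4 in WT, the Cpt1a (0.14) and Lipa (0.15) promoters for IL4 in KO, and the Cpt1a (0.13) and Acadm (0.16) promoters for IL4 against Dex in WT. Low peaks limit precision: the 5 peaks removed for low counts have no test.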
